A study of Mus musculus with 16 samples.

Results

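The transcripts described are those that mark T cells and natural killer (NK) cells, read in sorted type 1 conventional dendritic cells (cDC1), a cell type that is not expected to make most of them. A list of 36 genes was set by name, by a rule that takes no measured value but with earlier results of these data known, and a gene's level was read from whichever of its probe sets with 1 gene symbol was brightest. Of these, 34 genes were measured among 19938 genes in all. The other 2, Lck and Tcf7, had no probe set with 1 gene symbol and were not analysed here. Every one of the 34 had a single such probe set, no filter on low values was used, and all 34 entered each comparison.

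T cells recognise peptides on MHC molecules through a receptor whose signal is carried by the CD3 chains and the zeta chain (Cd247), and passed on by the kinase ZAP-70 and the adaptor LAT. The coreceptors CD4 and CD8 alpha beta split T cells into helper and cytotoxic lineages, while regulatory T cells are marked by the transcription factor FOXP3. NK cells lack the T cell receptor and are known by receptors such as NKp46 (Ncr1) and by the granule proteins that they share with cytotoxic T cells. Lymph nodes are packed with T cells and cDC1 form close contacts with them, so transcripts of the lymphocyte lineages in a sorted dendritic cell sample are usually read as a measure of other RNA in the sort. Mouse lymph node cDC1 can carry CD8 alpha without the beta chain, so Cd8b1 is the CD8 gene among the members.

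All mice were C57BL/6 and were heterozygous (Het) or knockout (KO) for Wdfy4. WDFY4 is a BEACH-domain protein that cDC1 need for cross-presentation of cell-associated antigen. Every mouse had a regressor tumour, a kind that is later rejected, in the back flank for 6 days. Inguinal lymph nodes of the draining or the non-draining flank were digested with collagenase B and DNase I, and cDC1 were sorted. Each of the 4 groups, Het draining, KO draining, Het non-draining and KO non-draining, had 4 arrays, numbered 1 to 4. All groups bore tumours, so no group shows the node of a tumour-free mouse. The labels do not state the deleted part of Wdfy4, the age of the mice, the sort gate or whether animals were pooled, and nothing in them states that same-group arrays stem from different animals. The p-values therefore rest on array-to-array spread that may be technical only.

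Levels are log2(intensity + 1), from intensities that the authors normalized with RMA, a method that gives every array a common distribution. Arrays have no read depth and carry no detection call here, so the number of arrays limits the precision and no member can be called absent. Array medians ran from 38.6 to 40.8 in intensity. Wdfy4 itself read 11.27 to 11.75 in Het draining, 10.80 to 11.44 in KO draining, 11.15 to 11.70 in Het non-draining and 10.91 to 11.63 in KO non-draining arrays, so the groups overlapped. KO stood lower than Het in draining nodes (-0.40 ± 0.18, SE) and non-draining nodes (-0.25 ± 0.18), and limma's adjusted p was 1.00 for both. Whether the probe set covers the deleted part is not given, so it does not check the genotype labels. Over all genes 675, 494, 655 and 421 had an unadjusted p under 0.05 in limma in the 4 comparisons, in the order given further on, and 0 were called after adjustment. The 14 cDC1 markers, such as the chemokine receptor gene Xcr1 and the dead-cell receptor gene Clec9a, were all measured and had mean levels between 9.49 and 10.09 per array. No array of T cells, NK cells or other cells was part of the series, so a member's level cannot be turned into a share of cells.

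The 3 CD3 genes are set out first, because they define the T cell receptor complex. Cd3g and Cd3d were among the members that varied most over the 16 arrays, while Cd3e spanned 2.93-fold (intensity + 1). In the RefSeq gene order Cd3g, Cd3d and Cd3e follow one another with 0 protein-coding genes between them. Promoter windows from 250 bases before to 50 after the annotated start were taken from RefSeq on GRCm38.p6. For the 34 measured members 35 windows of 26 genes were found, since some genes have several starts. They were searched on both strands for TGTGGT (a RUNX core), CTTTGA (a TCF/LEF core) and CGGAAG (an ETS core), and no matches overlap in the windows shown. The capitals mark the matches.
Cd3d, chr9:44981536-44981835, plus strand: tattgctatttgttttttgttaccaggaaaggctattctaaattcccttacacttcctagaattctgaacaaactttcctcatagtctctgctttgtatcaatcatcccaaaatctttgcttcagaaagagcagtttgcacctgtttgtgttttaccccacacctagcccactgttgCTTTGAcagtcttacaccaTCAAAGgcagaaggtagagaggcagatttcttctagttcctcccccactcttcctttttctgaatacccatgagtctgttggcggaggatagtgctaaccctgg
Cd3g, chr9:44980382-44980681, minus strand: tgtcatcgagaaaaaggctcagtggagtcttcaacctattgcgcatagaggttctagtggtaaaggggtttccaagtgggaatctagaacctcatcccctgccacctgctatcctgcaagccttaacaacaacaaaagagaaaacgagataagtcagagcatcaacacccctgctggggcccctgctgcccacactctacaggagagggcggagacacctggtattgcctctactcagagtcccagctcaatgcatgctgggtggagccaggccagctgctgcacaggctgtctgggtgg
Cd3e, chr9:45009562-45009861, minus strand: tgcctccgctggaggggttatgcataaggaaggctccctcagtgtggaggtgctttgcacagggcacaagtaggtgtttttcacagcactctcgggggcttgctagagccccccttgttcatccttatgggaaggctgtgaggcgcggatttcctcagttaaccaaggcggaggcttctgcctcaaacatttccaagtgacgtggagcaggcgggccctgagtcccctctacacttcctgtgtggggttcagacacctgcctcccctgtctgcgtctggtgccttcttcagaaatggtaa
Cd3d held the TCF/LEF letters at 2 places, positions -73 and -54 from the start, once on each strand. The Cd3g and Cd3e windows held none of the 3 motifs. Over all 32851 windows the RUNX letters were in 16.8%, the TCF/LEF letters in 16% and the ETS letters in 16.9%, against 11, 10 and 1 of the 35 member windows. A match is a description of the letters and not a binding site.

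Within a group, the same array was highest for most members, and the same array lowest. The range within each group, 0.58 to 0.83 for the mean level of the members, was wider than the gap between any pair of group means. Averaged over the 34 members, the level was 6.04, 6.34, 6.70 and 6.31 in Het draining arrays 1 to 4, and 6.33, 6.40, 6.91 and 6.64 in KO draining arrays. It was 6.89, 6.20, 6.63 and 6.80 in Het non-draining arrays and 6.25, 5.95, 6.78 and 6.71 in KO non-draining arrays. The lowest array, KO non-draining 2, and the highest, KO draining 3, were both KO, and all 4 groups overlapped. The group means were 6.35 ± 0.27, 6.57 ± 0.26, 6.63 ± 0.31 and 6.42 ± 0.39 (SD, n = 4 each) for Het draining, KO draining, Het non-draining and KO non-draining. With bulk arrays, fewer cells of a type and less RNA per cell cannot be told apart.

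**Figure D1:**
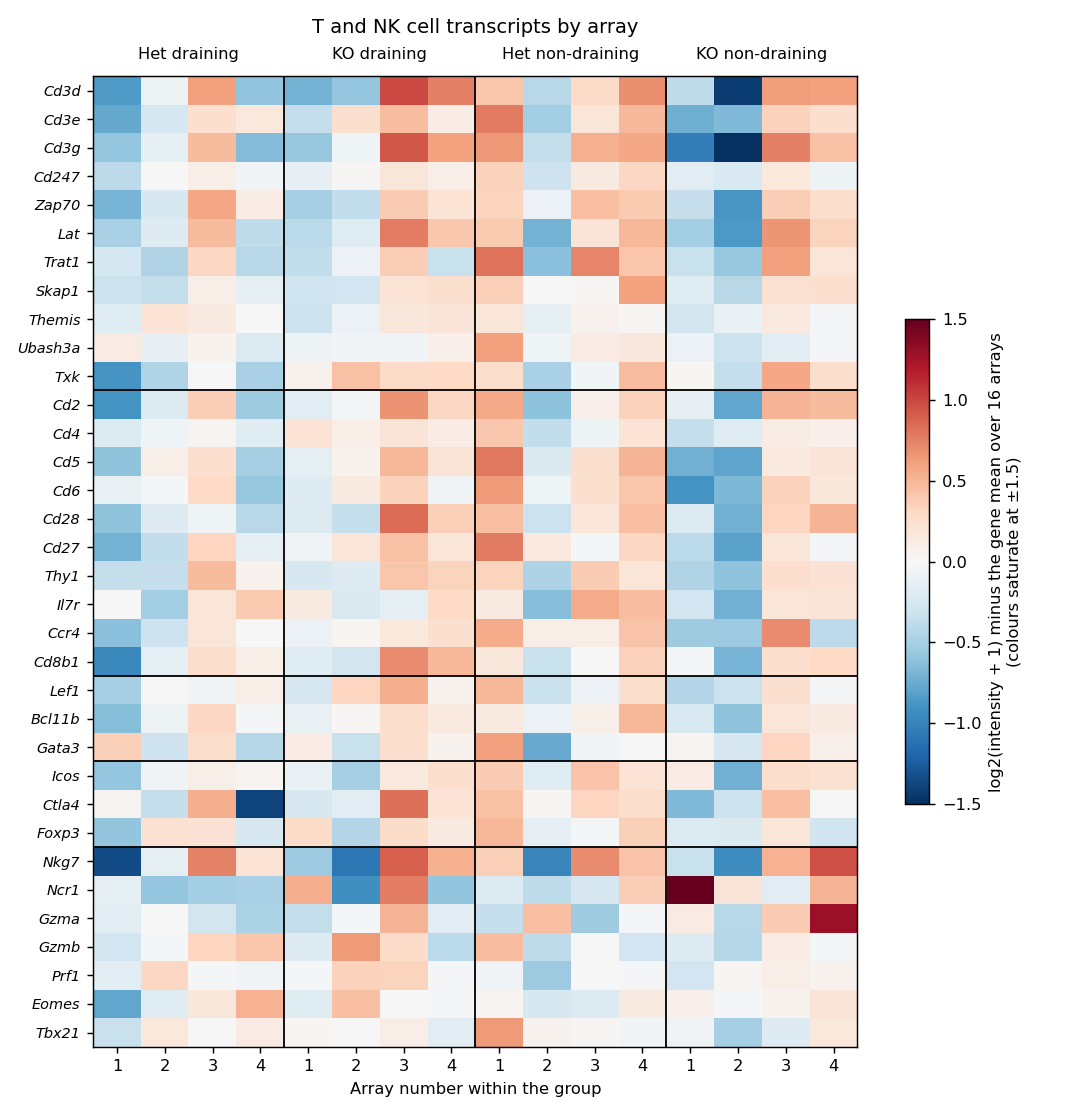
Level of each of the 34 measured members (rows, grouped by role) in each of the 16 arrays (columns, numbered within group), as log2(intensity + 1) minus the gene's mean over all arrays. Most T cell rows are low in Het draining 1, Het non-draining 2 and KO non-draining 2 and high in KO draining 3, while several cytotoxic and NK rows, such as Ncr1 and Gzmb, follow other arrays.

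The same arrays were at the extremes for most members. KO draining 3 was the highest array of its group for 23 of 34 members and KO non-draining 3 for 23 of 34, where 18.7% and 21.9% of all genes had their highest value in these arrays. Het draining 3 was highest for 22 members (22.6% of all genes) and Het non-draining 1 for 18 (29.7% of all genes). At the low end stood Het non-draining 2 for 31 members, KO non-draining 2 for 25, Het draining 1 for 24 and KO draining 1 for 22, where the shares of all genes were 27.3%, 28.1%, 26.1% and 23.1%. The within-group SD of a member had a median of 0.39, against 0.18 over all genes, and 33 of 34 members lay above that all-gene median. The members were thus more variable between arrays of 1 group than most genes on the array.

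Levels also differed by array number. The mean of arrays 3 and 4 exceeded that of arrays 1 and 2 for 27 of 34 members in Het draining, 29 in KO draining, 27 in Het non-draining and 33 in KO non-draining. Over all genes this held for 45.2%, 46.5%, 43.6% and 47.2% of genes in the same order. The median step was 0.31, 0.28, 0.21 and 0.66 in these groups, against -0.02, -0.02, -0.03 and -0.01 over all genes. Markers of other cells also differed by array number: the median step of the 14 cDC1 markers was -0.14, -0.06, -0.44 and -0.35 in the same order, with 3, 7, 3 and 4 of them higher in arrays 3 and 4. The 9 measured B cell markers had median steps of 0.66, 0.19, -0.36 and 0.37, and the 7 measured monocyte and macrophage markers 0.08, 0.69, 0.00 and 0.13. Arrays 3 and 4 were higher in all 4 groups for 20 members, and for 16% of all genes. The labels do not say what the numbers stand for, and the part of these cells in the members' step was not tested.

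The CD3 genes show this array by array. Cd3e, the CD3 epsilon chain, read 6.58, 7.09, 7.60 and 7.50 in Het draining arrays 1 to 4, 6.99, 7.59, 7.81 and 7.46 in KO draining, 8.13, 6.83, 7.53 and 7.83 in Het non-draining, and 6.61, 6.69, 7.69 and 7.59 in KO non-draining. Its highest array was Het non-draining 1 and its lowest Het draining 1, and the groups overlapped throughout. Cd3g, the gamma chain, read 8.28, 8.72, 9.34 and 8.21 in Het draining, 8.30, 8.79, 9.80 and 9.46 in KO draining, 9.51, 8.51, 9.39 and 9.44 in Het non-draining, and 7.83, 7.29, 9.62 and 9.30 in KO non-draining. Cd3d, the delta chain, read 6.98, 7.76, 8.45 and 7.24 in Het draining, 7.12, 7.25, 8.83 and 8.59 in KO draining, 8.25, 7.42, 8.12 and 8.53 in Het non-draining, and 7.46, 6.41, 8.47 and 8.45 in KO non-draining. For both chains KO non-draining arrays 1 and 2 were low and arrays 3 and 4 high. From the lowest to the highest of the 16 arrays Cd3g spanned 5.69-fold and Cd3d 5.32-fold, on the intensity + 1 scale.

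The zeta chain gene Cd247 moved less, from 6.25 to 6.98 over all arrays. Of the signalling genes, Zap70 ranged from 5.49 in KO non-draining 2 to 6.94 in Het draining 3, and Lat from 7.18 in KO non-draining 2 to 8.81 in KO draining 3. Trat1, an adaptor that stabilises the receptor at the surface, ranged from 3.77 to 5.21, and Skap1, an adaptor in integrin activation, from 5.39 to 6.41. By mean level Trat1 stood at percentile 25.2 of all genes. Themis, which sets signal strength in developing T cells, was the flattest member, with levels between 5.47 and 6.00. Ubash3a, a restraining member of the receptor pathway, lay between 5.15 and 6.09. Its highest level, in Het non-draining 1, stood apart from the remaining 15 arrays, which reached 5.64.

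Txk, a Tec-family kinase of T and NK cells, had the smallest p of the members for KO against Het in draining nodes. It read 5.51, 5.94, 6.40 and 5.90 in Het draining and 6.46, 6.83, 6.68 and 6.69 in KO draining arrays 1 to 4. Every KO draining array lay above every Het draining array. In Het non-draining it read 6.66, 5.90, 6.35 and 6.85, and in KO non-draining 6.42, 6.04, 6.97 and 6.66. The non-draining arrays of both genotypes overlapped, and Het draining was the low group.

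Among surface receptors the coreceptor genes of both T cell lineages were read. Cd4 read 5.73, 5.87, 5.98 and 5.76 in Het draining, 6.15, 6.04, 6.13 and 6.05 in KO draining, 6.35, 5.57, 5.86 and 6.15 in Het non-draining, and 5.58, 5.76, 6.05 and 6.01 in KO non-draining. The KO draining arrays lay above all Het draining arrays, and the other groups overlapped. Cd8b1, the CD8 beta chain, read 6.63, 7.45, 7.86 and 7.68 in Het draining, 7.41, 7.32, 8.31 and 8.10 in KO draining, 7.77, 7.26, 7.60 and 7.94 in Het non-draining, and 7.57, 6.90, 7.85 and 7.89 in KO non-draining. Its low arrays were Het draining 1 and KO non-draining 2, as for Cd3d.

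Cd27, a costimulatory receptor of the TNF receptor family, was among the 4 members of smallest p in every comparison below. It read 5.46, 5.80, 6.49 and 6.02 in Het draining, 6.11, 6.35, 6.61 and 6.35 in KO draining, 6.95, 6.31, 6.14 and 6.48 in Het non-draining, and 5.76, 5.37, 6.35 and 6.16 in KO non-draining. Each pair of groups still shared part of its range. The inhibitory receptor genes Cd5 and Cd6, neighbours with 0 protein-coding genes between them, shared their low arrays: Cd5 ranged from 6.83 in KO non-draining 2 to 8.41 in Het non-draining 1, and Cd6 from 6.17 in KO non-draining 1 to 7.70 in Het non-draining 1. Het non-draining 1 was the highest of the 16 arrays for both.

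The remaining surface genes spanned between 2.11-fold and 2.97-fold over the 16 arrays. These were the adhesion receptor gene Cd2 (6.58 to 8.15), the costimulatory receptor gene Cd28 (5.54 to 7.10), Thy1 (5.54 to 6.62), the interleukin 7 receptor gene Il7r (7.92 to 9.20) and the chemokine receptor gene Ccr4 (5.78 to 7.12). KO draining 3 was highest for Cd2 and Cd28, KO non-draining 3 for Ccr4, Het draining 3 for Thy1 and Het non-draining 3 for Il7r.

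Of the T cell transcription factor genes, Lef1 ranged from 6.21 in Het draining 1 to 7.27 in KO draining 3 and Bcl11b, which holds T cell identity, from 5.94 in Het draining 1 to 7.08 in Het non-draining 4. Gata3, a factor of helper T cells and innate lymphoid cells, ranged from 4.998 in Het non-draining 2 to 6.36 in Het non-draining 1. The whole range of Gata3 thus fell within a single group.

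The regulatory and activated T cell genes were Foxp3, the checkpoint receptor gene Ctla4 and the costimulatory receptor gene Icos. Ctla4 read 7.07, 6.67, 7.57 and 5.64 in Het draining, 6.79, 6.87, 7.85 and 7.24 in KO draining, 7.46, 7.05, 7.35 and 7.29 in Het non-draining, and 6.36, 6.70, 7.47 and 7.03 in KO non-draining. Its lowest array, Het draining 4, was not the lowest for its chromosomal neighbours Cd28 (5.84) and Icos (8.67), which lie on either side of it with 0 protein-coding genes between them. Foxp3 ranged from 5.45 in Het draining 1 to 6.53 in Het non-draining 1, and Icos from 7.91 in KO non-draining 2 to 9.06 in Het non-draining 3.

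The cytotoxic and NK cell genes did not form a single pattern. Nkg7, a granule membrane protein of NK and cytotoxic T cells, read 5.35, 6.54, 7.44 and 6.90 in Het draining, 6.15, 5.61, 7.58 and 7.22 in KO draining, 7.05, 5.70, 7.40 and 7.12 in Het non-draining, and 6.36, 5.76, 7.21 and 7.66 in KO non-draining. It had the highest within-group SD of the members, 0.85, and arrays 3 and 4 lay above arrays 1 and 2 in all 4 groups. The gap was narrow in Het non-draining, where array 1 was close to array 4. The step from arrays 1 and 2 to arrays 3 and 4 was 1.22, 1.52, 0.88 and 1.38 in Het draining, KO draining, Het non-draining and KO non-draining.

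Ncr1, the most NK-restricted member, read 4.65, 4.22, 4.29 and 4.31 in Het draining, 5.34, 3.88, 5.56 and 4.21 in KO draining, 4.59, 4.41, 4.54 and 5.16 in Het non-draining, and 6.66, 4.99, 4.63 and 5.31 in KO non-draining. Its highest array, KO non-draining 1, was among the low arrays for Cd3e and Cd5. The granzyme A gene Gzma ranged from 3.71 in Het non-draining 3 to 5.53 in KO non-draining 4, the highest array for Nkg7 as well. The granzyme B gene Gzmb read 4.74, 5.01, 5.35 and 5.44 in Het draining, 4.83, 5.67, 5.30 and 4.62 in KO draining, 5.49, 4.64, 5.02 and 4.74 in Het non-draining, and 4.84, 4.60, 5.14 and 4.99 in KO non-draining. Its values showed neither a group order nor the array order of the CD3 genes. By mean level Ncr1, Gzma and Gzmb stood at percentile 34.0, 22.1 and 39.2 of all genes. How much of their signal is background was not tested.

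Prf1, which encodes perforin, ranged from 5.26 to 6.15. The T-box factor genes of effector and NK cells ranged from 4.88 to 6.19 for Eomes and from 5.02 to 6.16 for Tbx21. Eomes was lowest in Het draining 1, and Tbx21 was highest in Het non-draining 1.

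**Figure D2:**
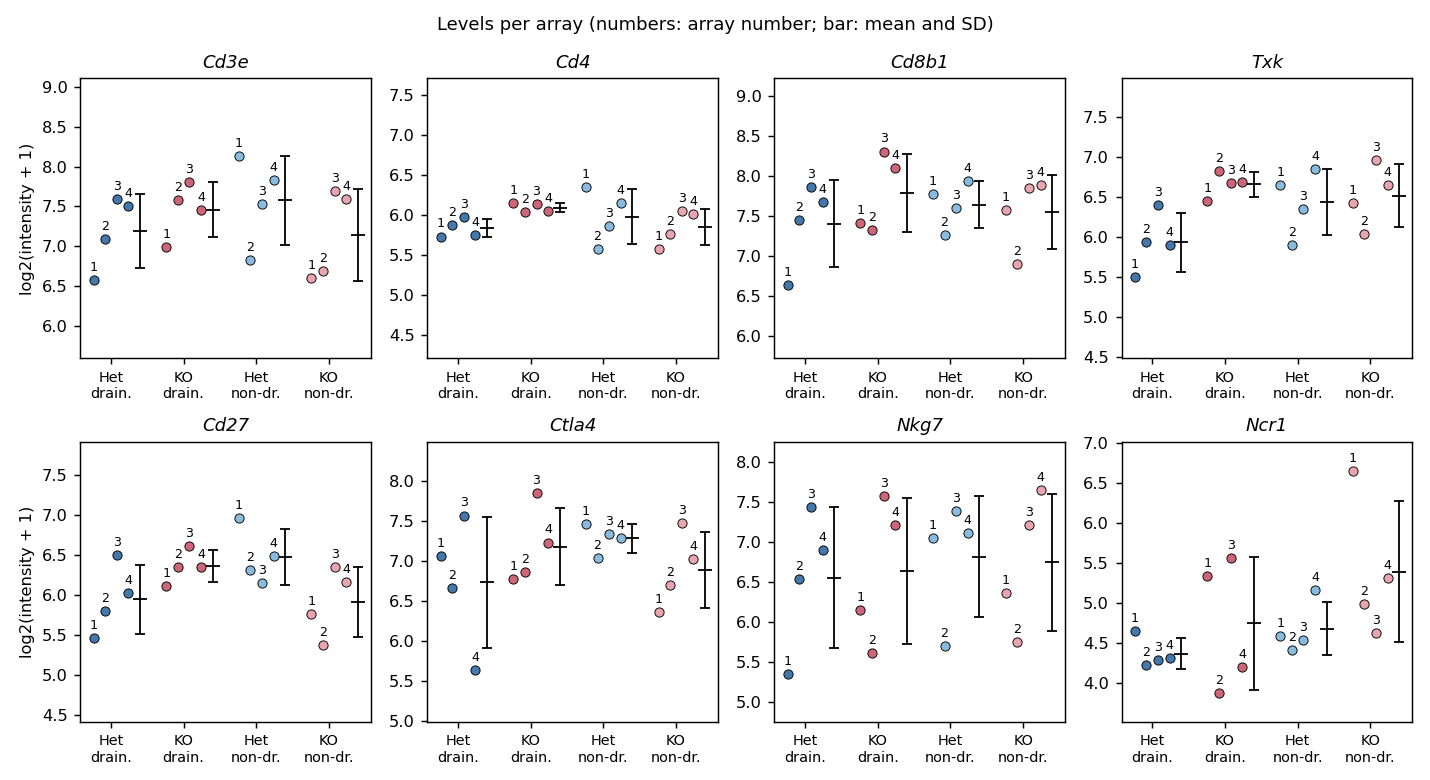
Levels of 8 members in the 4 arrays of each group as log2(intensity + 1), with the array number above each point and the mean and SD beside the points. Txk and Cd4 lie higher in all KO draining than in all Het draining arrays, and the remaining genes overlap between those groups.

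In the draining node, where tumour material arrives, most T and NK cell transcripts stood slightly higher in KO than in Het arrays, but no member passed the test. The difference was above 0 for 31 of 34 members, with a median of 0.17, while 49.1% of all genes lay above and 50.9% below 0, with a median of 0.00. At an adjusted p under 0.05 in limma 0 of 34 members and 0% of all genes were called. At an unadjusted p under 0.05 there was 1 member higher, against 1.69% of all genes, and 0 members lower, against 1.70%. Groups did not overlap for 2 members, both higher in KO, against 0.838% of all genes higher and 0.747% lower. By role the differences above 0 were 9 of 11 in the receptor complex, 10 of 10 surface receptors, 3 of 3 transcription factors, 3 of 3 regulatory and activated T cell genes and 6 of 7 cytotoxic and NK genes. Most members shared their extreme arrays, so these counts, and those of the comparisons below, are not counts of independent genes.

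The members of smallest p in the draining node were Txk, Cd4, Cd27 and Cd28. Txk differed by 0.73 ± 0.22 (SE), a 1.66-fold higher level, and limma gave an unadjusted p of 0.00428 and an adjusted one of 1.00. Cd4 differed by 0.26 ± 0.14, Cd27 by 0.41 ± 0.23 and Cd28 by 0.48 ± 0.28, with unadjusted p values of 0.0894, 0.0935 and 0.103 in limma. Of the defining genes, Cd3e differed by 0.27 ± 0.31, Cd8b1 by 0.38 ± 0.28, Ncr1 by 0.38 ± 0.39 and Gzmb by -0.03 ± 0.23; none of these had an unadjusted p under 0.05 in limma. Single arrays moved these values: without Het draining 1 Cd3e differed by 0.06 and Cd8b1 by 0.12, and without KO draining 3 Ncr1 differed by 0.11 and Cd28 by 0.25. The count of members at an unadjusted p under 0.05, in either direction, was 4 without Het draining 3 and 1 or 2 without any other array. Of all 19938 genes, 876 had such a p without Het draining 3 and 678 to 873 without another array. The list median was 0.11 without Het draining 1, 0.30 without Het draining 3 and 0.09 without KO draining 3. Arrays 1 and 2 alone gave 0.12, and arrays 3 and 4 alone 0.22.

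In the non-draining node most T cell transcripts stood lower in KO than in Het arrays, and again none passed. The difference was below 0 for 28 of 34 members, with a median of -0.25, while 48.1% of all genes lay below and 51.9% above 0. In limma 0 of 34 members and 0% of all genes were called at an adjusted p under 0.05. At an unadjusted p under 0.05 there were 4 members lower, against 1.18% of all genes, and 0 higher, against 1.30%. No member had groups that did not overlap, where 1.20% of all genes were higher and 1.19% lower in that way. The differences were below 0 for 10 of 11 receptor complex genes, 10 of 10 surface receptors, 2 of 3 transcription factors, 3 of 3 regulatory and activated T cell genes and 3 of 7 cytotoxic and NK genes.

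The smallest p values of this comparison were for Ubash3a, Cd27, Cd5 and Cd6. Ubash3a differed by -0.36 ± 0.12, and limma gave an unadjusted p of 0.00993 and an adjusted one of 1.00. Cd27 differed by -0.56 ± 0.23, Cd5 by -0.62 ± 0.27 and Cd6 by -0.57 ± 0.25, with unadjusted p values of 0.0256, 0.0322 and 0.0365 in limma. Ncr1 (0.72 ± 0.39) had the opposite sign, while Cd3e (-0.43 ± 0.31), Cd4 (-0.13 ± 0.14), Cd8b1 (-0.09 ± 0.28) and Gzmb (-0.08 ± 0.23) lay below 0. None of these 5 had an unadjusted p under 0.05 in limma. Without KO non-draining 1 the difference of Ncr1 was 0.30, and without Het non-draining 1 that of Cd3e was -0.25 and that of Ubash3a -0.23. With 1 array left out, the count of members at an unadjusted p under 0.05 ran from 1, without Het non-draining 1 or KO non-draining 1, to 9 without Het non-draining 2. Of all 19938 genes, 510, 454 and 602 had such a p without these arrays, in this order. The median rested largely on arrays 1 and 2: these alone gave -0.45, and arrays 3 and 4 alone 0.01. Leaving out KO non-draining 2 gave -0.10, Het non-draining 2 gave -0.38 and KO non-draining 4 gave -0.37.

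**Figure D3:**
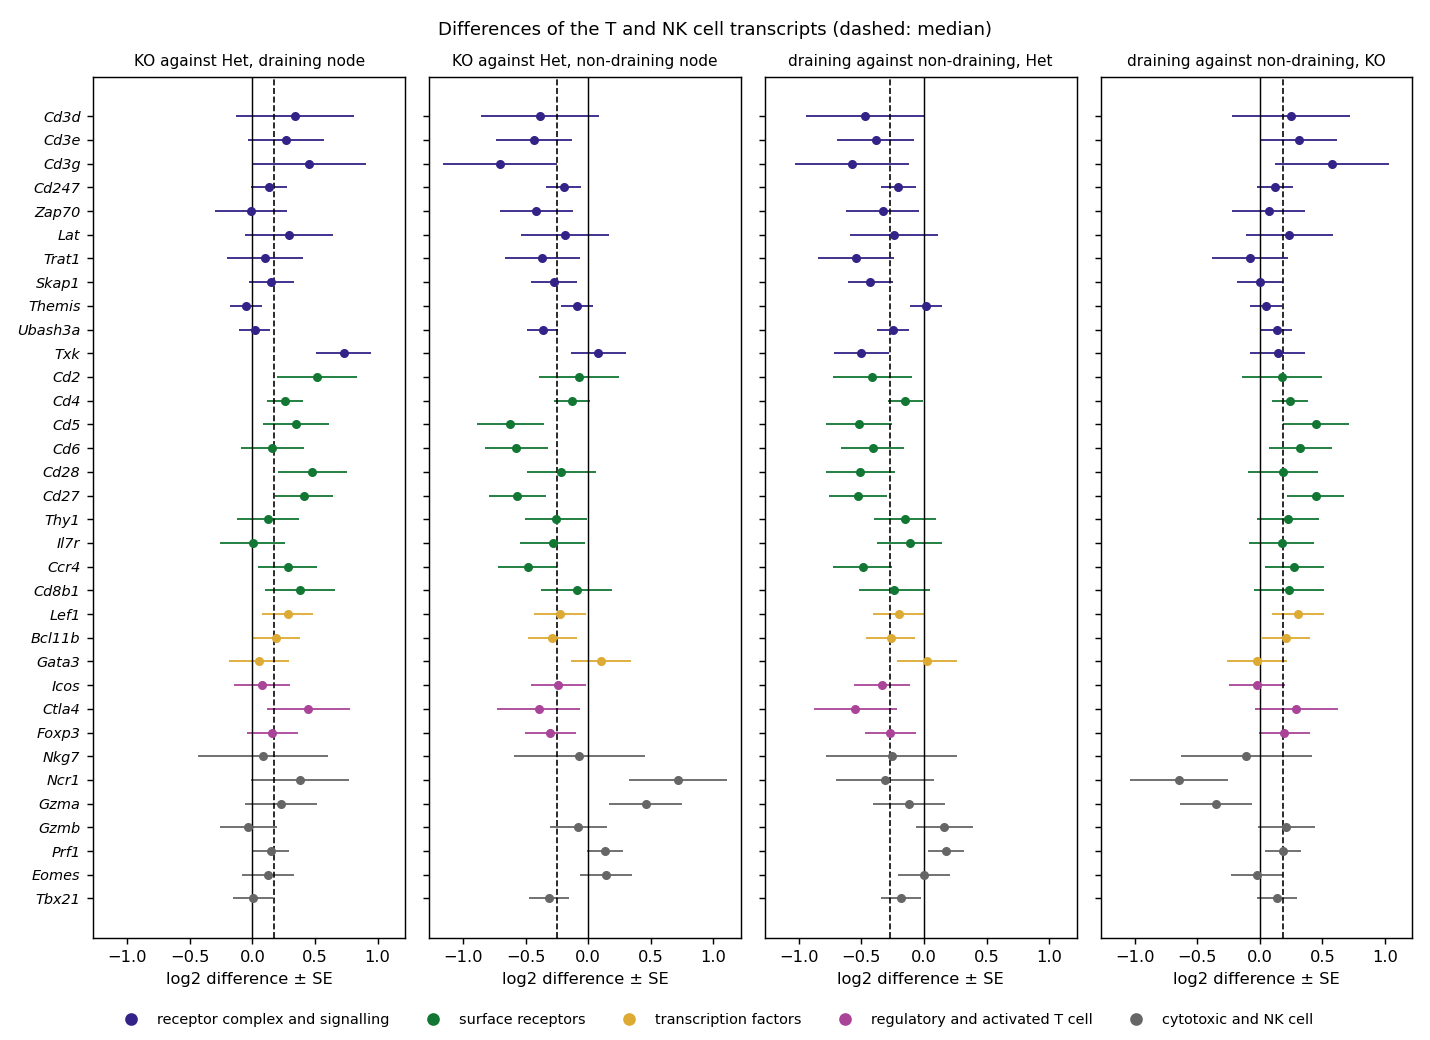
log2 difference of each of the 34 members with its standard error from limma in the 4 simple comparisons, coloured by role, with the list median dashed (0.17, -0.25, -0.27 and 0.19 from left to right). No member passed an adjusted p of 0.05 in any panel, and the median lies right of 0 in the first and last panels and left of 0 in the panels between.

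In Het cells the draining node had lower levels of most T cell transcripts than the non-draining node, though no member passed. These are the Het arrays of the comparisons above, so the signs are not independent of theirs. The difference was below 0 for 29 of 34 members, with a median of -0.27, while 47.2% of all genes lay below and 52.8% above 0. In limma 0 of 34 members and 0% of all genes were called, 3 members were lower at an unadjusted p under 0.05 against 1.35% of all genes, and 0 were higher against 1.93%. No member's groups were free of overlap, against 1.40% of all genes higher and 0.998% lower. Skap1 differed by -0.43 ± 0.18, Cd27 by -0.53 ± 0.23, Txk by -0.50 ± 0.22 and Ccr4 by -0.49 ± 0.24, with unadjusted p values of 0.0319, 0.035, 0.036 and 0.0546 in limma. The defining genes lay at -0.39 ± 0.31 for Cd3e, -0.15 ± 0.14 for Cd4, -0.24 ± 0.28 for Cd8b1, -0.31 ± 0.39 for Ncr1 and 0.16 ± 0.23 for Gzmb. Without Het draining 1 Cd3e lay at -0.18. The count of 3 members was 11 without Het non-draining 2 and 0 without Het draining 2, Het non-draining 1 or Het non-draining 4. Of all 19938 genes, 596, 636, 625 and 627 had such a p without these arrays, in this order. Same-numbered Het arrays of both nodes correlated at 0.20 to 0.31 in their deviations from the group means. With a block for the array number, shared by Het and KO arrays, the count was 8 members and 915 of 19938 genes. With arrays 1 and 2 against 3 and 4 as the block it was 6 members and 921 genes. The receptor complex was below 0 for 10 of 11 genes and the surface receptors for 10 of 10, while 3 of 7 cytotoxic and NK genes lay above 0. Leaving out Het draining 1 gave a median of -0.13, Het draining 3 gave -0.41 and Het non-draining 2 gave -0.43. Arrays 1 and 2 alone gave -0.39, and arrays 3 and 4 alone -0.18.

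In KO cells the same node comparison leaned the other way. The difference was above 0 for 26 of 34 members, with a median of 0.19, while 50.7% of all genes lay above and 49.3% below 0. In limma 0 of 34 members and 0% of all genes were called. At an unadjusted p under 0.05 there were 0 members higher, against 1.14% of all genes, and 0 lower, against 0.973%. No member's groups were free of overlap, against 0.848% of all genes higher and 0.592% lower. The smallest p values were for Cd27 (0.45 ± 0.23), Cd5 (0.45 ± 0.27), Cd4 (0.24 ± 0.14) and Ncr1 (-0.65 ± 0.39), with unadjusted p values of 0.0702, 0.11, 0.112 and 0.116 in limma. Cd3e differed by 0.31 ± 0.31, Cd8b1 by 0.23 ± 0.28 and Gzmb by 0.21 ± 0.23. Without KO non-draining 1 Ncr1 differed by -0.23 and Cd3e by 0.13. Without KO non-draining 3 the count at an unadjusted p under 0.05 was 6 members and 458 of 19938 genes. A single array, KO non-draining 2, carried much of the lean above 0: without it the median was 0.03 and 19 of 34 members lay above 0. The median was also 0.12 without KO non-draining 1, 0.09 without KO draining 3 and 0.30 without KO non-draining 3, while arrays 1 and 2 alone gave 0.29 and arrays 3 and 4 alone 0.05.

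Whether the node difference differed by genotype was tested as the interaction, the KO minus Het difference in the draining node less that in the non-draining node. It combines the arrays of the comparisons above and adds no independent data. It was above 0 for 30 of 34 members, with a median of 0.45, while 47.7% of all genes lay above and 52.3% below 0, with a median of -0.01. In limma 0 of 34 members and 0% of all genes were called, and 4 members were above 0 at an unadjusted p under 0.05 against 0.993% of all genes, with 0 members below 0 against 1.33%. These were Cd27 (0.97 ± 0.33, unadjusted p = 0.00841 in limma), Cd5 (0.97 ± 0.38), Ccr4 (0.76 ± 0.33) and Ubash3a (0.38 ± 0.18), each with an adjusted p of 1.00. The count of 4 was 12 without Het non-draining 2 and 2 without Het draining 2, KO draining 3, KO draining 4, Het non-draining 1, Het non-draining 4 or KO non-draining 2. Of all 19938 genes, 494 had such a p without Het non-draining 2, and 418 to 599 without 1 of the other arrays named. The 11 receptor complex genes and the 10 surface receptor genes all lay above 0, against 4 of 7 cytotoxic and NK genes. Arrays 1 and 2 alone gave a median of 0.63, arrays 3 and 4 alone 0.26, and leaving out KO non-draining 2 gave 0.29.

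Further T and NK cell genes that are not members were read as a second list, on the same arrays, so it is no independent reading. Of 40 such genes 38 were measured. In limma 0 of them and 0% of all genes were called in each of the 5 comparisons. KO against Het stood above 0 for 27 in the draining node (median 0.14), against 49.1% of all genes. It was below 0 for 26 in the non-draining node (median -0.17), against 48.1%. Draining against non-draining lay below 0 for 35 in Het (median -0.15), against 47.2%, and above 0 for 27 in KO (median 0.04), against 50.7%. At an unadjusted p under 0.05 in limma the list had 0 genes in the first comparison. It had 1 higher and 1 lower in the second, 1 lower in the third and 1 higher in the fourth. Over all genes the shares higher were 1.69%, 1.30%, 1.93% and 1.14%, and lower 1.70%, 1.18%, 1.35% and 0.973%. The genes named next had the smallest p of this list in their comparison, so they do not stand for the list. The sphingosine 1-phosphate receptor gene S1pr1, which guides lymphocyte exit from nodes, differed by 0.66 ± 0.32 between KO and Het in the draining node. The receptor gene Klrd1 (CD94) of NK cells differed there by 0.64 ± 0.32. Their unadjusted p values in limma were 0.0587 and 0.0599. In the non-draining node the interleukin 2 receptor alpha gene Il2ra differed by -0.69 ± 0.26 and the NK receptor gene Klre1 by 0.27 ± 0.12. Here the unadjusted p values in limma were 0.0152 and 0.0466. The adaptor gene Grap2 differed by -0.36 ± 0.16 between nodes in Het, and the chromatin organiser gene Satb1 by 0.55 ± 0.23 between nodes in KO. For these limma gave unadjusted p values of 0.0354 and 0.0316.

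Markers of other cells were read on the same arrays. Every listed T cell marker and 5 of the 8 NK cell markers are members themselves, so these sums are no separate reading. The summed intensity of the 13 measured T cell markers was 1322 to 2548 in Het draining, 1489 to 3110 in KO draining, 1517 to 2822 in Het non-draining and 1026 to 2742 in KO non-draining arrays. That of the 8 NK cell markers was 234 to 442, 313 to 590, 298 to 421 and 295 to 575 in the same order. The T cell sum thus varied up to 2.67-fold within KO non-draining. The 9 measured B cell markers summed to 408 to 771, 511 to 608, 393 to 717 and 518 to 844, and their mean was highest in Het non-draining 2 within its group (6.26), where the T cell marker mean was lowest (6.51). The 14 cDC1 markers include Cd8a, the gene of the CD8 alpha chain that T cells also carry. Whether T cell RNA adds to the values of the cDC1 markers was not tested. These markers summed to 18704 to 22958, 18248 to 21904, 16104 to 22647 and 18761 to 25270. Their mean level was highest of all arrays in KO non-draining 2 (10.09), where the T cell marker mean was lowest (6.10), and lowest in Het non-draining 3 (9.49) and 4 (9.50), where the T cell marker means were 7.13 and 7.26. The array with the highest T cell marker mean, KO draining 3 (7.35), had one of the higher cDC1 means (9.95), so the arrays did not follow a single inverse order.

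The plasmacytoid dendritic cell markers summed to 1354 to 1938, 1182 to 1946, 1475 to 1752 and 1278 to 2081, and the 7 measured monocyte and macrophage markers to 761 to 976, 690 to 1306, 1019 to 1283 and 981 to 1121. KO against Het in the non-draining node had medians of 0.46 for B cell markers, 0.21 for cDC1 markers and -0.37 for T cell markers, and in the draining node of 0.13, 0.00 and 0.19. NK cell markers had medians of 0.19 and 0.18 in these comparisons. In the non-draining node KO stood above Het for 13 of 14 cDC1 markers, 3 of them at an unadjusted p under 0.05 in limma. The same held for 9 of 9 B cell markers, 2 at that p, and 7 of 8 NK cell markers, 1 at that p. Over all genes 1.30% were higher at that p. All 13 measured T cell markers stood lower there, 2 at that p, against 1.18% of all genes. None of these markers was called. Draining against non-draining had medians of -0.39 for T cell, -0.08 for NK cell, 0.01 for B cell and 0.10 for cDC1 markers in Het, and of 0.23, 0.00, -0.20 and -0.05 in KO. The monocyte and macrophage markers lay below 0 for 6 of 7 genes between nodes in Het (median -0.12). At an unadjusted p under 0.05 in limma 2 of them were lower, against 1.35% of all genes. The medians of these markers were -0.02 between nodes in KO, and 0.02 and -0.15 for KO against Het in draining and non-draining nodes. The lowest intensity of any probe set was 3.33, so a marker level above 0 does not show that the marker was expressed. The part of these cells in the member differences was not tested.

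**Figure D4:**
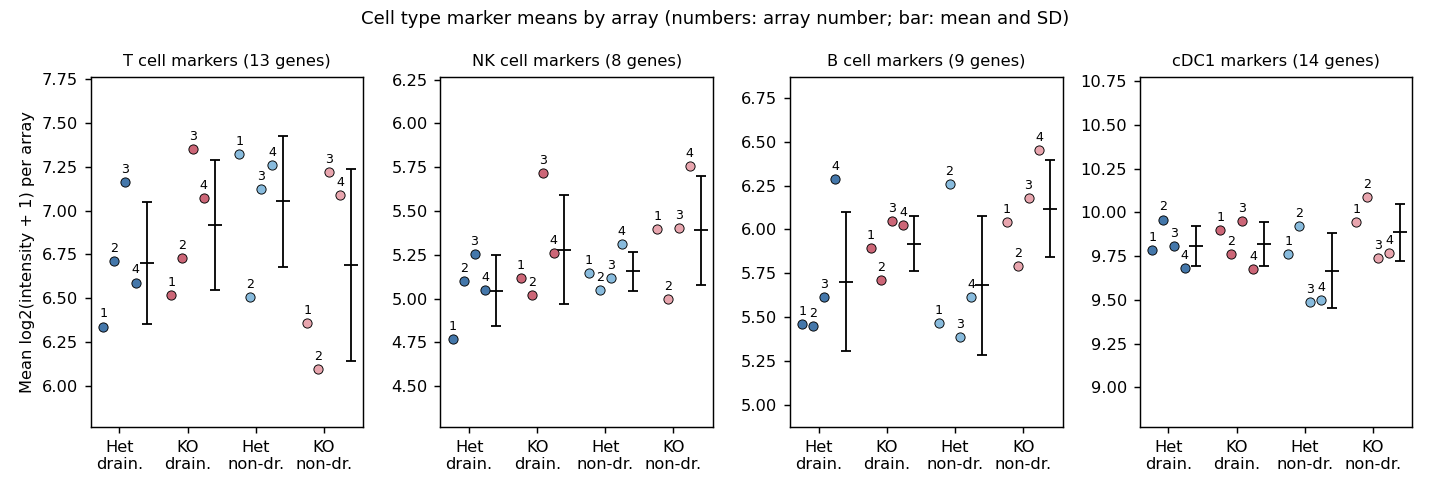
Mean log2(intensity + 1) per array of the measured T cell, NK cell, B cell and cDC1 markers in the 4 groups, with array numbers, and the group mean and SD beside the points; each panel has its own offset but the same span. The T cell means run from 6.10 to 7.35 and overlap in all groups, and the array with the lowest T cell mean, KO non-draining 2, has the highest cDC1 mean, while the one with the highest T cell mean, KO draining 3, is also high in cDC1 markers (9.95).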

How the data were processed

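RNA of 16 sorted cDC1 samples was read on Affymetrix Mouse Gene arrays. The deposited intensity values are linear and come from RMA run by the authors, as the submitters' processing notes name it without software or release. Of 35556 probe sets, 21789 have 1 gene symbol in GEO's platform annotation, 1621 several and 12146 none. The brightest of these by mean level stood for each of 19938 genes. All values were taken as log2(intensity + 1) and fitted in limma 3.58.1 (R 4.3.3) as 1 model of 4 groups, with Benjamini-Hochberg adjustment over all genes and a threshold of 0.05. On simulated data the KO against Het comparison in the draining node recovered 70 of 200 genes changed by 0.5 and 179 of 200 changed by 1 (log2). The changed genes were drawn at random from all genes, with noise independent between genes. The median SE in that comparison was 0.24 for the members and 0.12 over all genes. Recovery of changes in the members was not simulated, so these shares do not hold for them. The members, rule and lists were chosen with earlier results of these data known. Every measured member is named with its level. Differences are given for the 4 members of smallest p in each comparison and for Cd3e, Cd4, Cd8b1, Ncr1 and Gzmb. Of the further T and NK genes, only ones of smallest p in a simple comparison are named. Promoters are from RefSeq, and all 34 members matched it by gene ID. Figures used matplotlib 3.10.9. Alternatives were no or a larger pseudocount, a filter on dim genes, renewed quantile normalization, the mean of probe sets, a trended robust prior, arrays 1 and 2 or 3 and 4 alone or as a block, each array left out, and a replicate block. In deviations from the group means, same-numbered arrays of both nodes correlated at 0.20 to 0.31 in Het, above 0.1 in all 4 pairs. Het draining 1 correlated better with non-draining 2 (0.25) than with its own number (0.23). Het draining 3 did so with non-draining 4 (0.38, against 0.31). KO draining 1 did so with KO non-draining 2 (0.11, against -0.01), and KO draining 3 with KO non-draining 4 (0.38, against 0.20). Each of these better matches lay within arrays 1 and 2 or within arrays 3 and 4. The range for same-numbered arrays was -0.01 to 0.48 in KO and -0.06 to 0.42 between genotypes, where some pairs were under 0.1. The main fit had no block, so its p-values between nodes are unpaired.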

Additional observations from a re-analysis of the deposited data

Results flagged for a closer look

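In 5 of 140 groups of 4 arrays (3.57%) 1 array lay far from the other 3 by Dixon's test, where chance gives about 1 in 20. Cd3g was low in Het non-draining 2 (8.51, others 9.39 to 9.51). Prf1 was low in the same array (5.26, others 5.75 to 5.79). Icos was low in KO non-draining 2 (7.91, others 8.76 to 8.89). Ccr4 was high in KO non-draining 3 (7.12, others 5.87 to 6.02). Tbx21 was high in Het non-draining 1 (6.16, others 5.48 to 5.58).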

How the results depend on the processing

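Of 37 named differences 8 changed sign under some alternative and 29 under none that gave a value; the 4 of Ncr1, which is under the dim-gene filter, have none there. Leaving out 1 array moved 26 of the 37 by over 1.5 times. No named difference was called, and the smallest adjusted p among them over all settings was 0.411 in limma. Arrays 3 and 4 alone gave 4 called genes when KO and Het were compared in draining nodes, 2 in non-draining nodes and 1 between nodes in KO, with 0 members called. In that setting KO less Het in non-draining nodes was 0.029 for Cd4, 0.10 for Cd8b1 and 0.19 for Gzmb, and the node difference in KO was -0.011 for Cd3e and -0.11 for Gzmb. Arrays 1 and 2 alone gave Gzmb 0.37 for KO less Het in draining nodes and -0.19 between nodes in Het. With 1 array left out at a time, Gzmb ran from -0.22 to 0.13 for KO less Het in draining nodes and from -0.19 to 0.0926 in non-draining nodes. Cd8b1 ran from -0.22 to 0.13 for KO less Het in non-draining nodes and from -0.39 to 0.020 between nodes in Het. The cause of these changes was not tested. With a replicate block 0 genes and 0 members were called in each comparison, and 948, 746, 915, 605 and 674 genes had an unadjusted p under 0.05 in limma, against 675, 494, 655, 421 and 463 without it. Members at an unadjusted p under 0.05 numbered 2, 8, 8, 0 and 11 with the block, against 1, 4, 3, 0 and 4. Of 8 draining arrays, 4 correlated best with their own number. The number of arrays, 4 a group, limits the precision.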
